A study of Mus musculus with 12 samples.

Results

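The calnexin and calreticulin cycle of the mouse thyroid was followed through 7 genes, *Calr*, *Canx*, *Uggt1*, *Uggt2*, *Ganab*, *Prkcsh* and *Mogs*. They were taken by symbol from the 55536 genes of the deposited expression tables, and all 7 were among the 19661 genes with enough reads to be tested. RNA was sequenced from the thyroids of 12 mice, with 1 library for each mouse, to compare 5 affected mice with 7 unaffected mice. The affected mice (replicates 1, 3, 4, 5 and 6) were C57BL/6NTac mice from Taconic with thyroid dysplasia, which the study traces to a LINE-1 element inserted in an intron of the thyroglobulin gene *Tg*, with skipping of the exon that follows. Of the unaffected mice, 6 (replicates 21 to 26) were C57BL/6NCrl mice from Charles River and 1 (replicate 14) was a knockout mouse from Taconic, whose targeted gene is not given in the sources used here. The mice were on C57BL/6N backgrounds, and the labels name no treatment, *Tg* genotype, sex or age. Colony and phenotype separate the mice in the same way except for replicate 14, so effects of the insertion and of the colony cannot otherwise be told apart.

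Thyroglobulin, the precursor of thyroid hormone, is a large secreted protein that carries many N-linked glycans and makes up most of what a thyroid follicle cell exports. In the endoplasmic reticulum (ER), the oligosaccharyltransferase attaches a glycan with terminal glucoses to such a protein. Glucosidase I (*Mogs*) removes the outermost glucose and glucosidase II, made of a catalytic subunit (*Ganab*) and a non-catalytic subunit (*Prkcsh*), removes those below it. While a single glucose is left, the lectin chaperones calnexin (*Canx*, in the membrane) and calreticulin (*Calr*, soluble) hold the protein and bring it to folding enzymes. After release, the glucosyltransferase UGGT1 (*Uggt1*) senses regions that are not yet folded and adds a glucose again, so that the protein binds once more. UGGT2 (*Uggt2*) is its relative.

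All 7 genes were higher in affected mice. *Calr* rose most, by 4.77-fold, followed by *Uggt1* at 2.14-fold, while the other 5 genes rose by less than 1 log2 unit. Each of the 7 passed an adjusted p of 0.05 in edgeR's quasi-likelihood test, corrected over all genes tested by the Benjamini-Hochberg method. Over all genes tested, 7.63% were higher by that rule, 6.1% were lower and 13.7% changed in either direction. In 5 of the 7 genes the lowest affected mouse was above the highest unaffected mouse, which was the case for 3.78% of all genes tested. The median log2 fold change was 0.63 for the 7 genes and 0.01 for all genes tested. The call for *Uggt2* was the least stable, as it passed in 3 of 24 other fits. In whole-tissue RNA, fewer cells of a type and less RNA per cell cannot be told apart.

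Libraries held between 11434901 counts, in replicate 14, and 23319948 counts. Markers of thyroid follicle cells were measured in every mouse, and 1 of 10 was higher (*Slc26a4*, at 3.34 CPM or less in all mice) and 1 lower (*Pax8*) in affected mice. *Tg* itself ranged from 100510 to 255304 CPM in affected mice and from 210078 to 303613 CPM in unaffected mice, where CPM are counts divided by the scaled library total. Affected mice 1 and 6 had the lowest levels among affected mice for all 10 follicle cell markers. Other tissue differed between dissections. The summed markers of parathyroid ranged from 29.5 to 4317 CPM in affected mice and from 1807 to 3426 CPM in unaffected mice, and those of skeletal muscle from 19.9 to 19928 CPM and from 7.99 to 9562 CPM. Of the 5 fibroblast markers 2 were higher (*Pdgfra* and *Dcn*), of the 5 macrophage markers 2 were higher (*Cd68* and *Csf1r*), and of the 4 endothelial markers 1 was lower (*Kdr*). Summed fibroblast markers were 641 to 1028 CPM in affected and 446 to 669 CPM in unaffected mice, and summed macrophage markers 88.9 to 150 CPM and 46.1 to 110 CPM. In the 10 other marker lists 0 of 27 markers tested passed in edgeR. An unadjusted p under 0.05 was found for 4 of them, 2 of adipose tissue, 1 of cartilage and 1 of airway epithelium. Summed adipose markers were 359 to 2716 CPM in affected and 374 to 867 CPM in unaffected mice. Those of cartilage were 0.155 to 357 CPM and 0.515 to 7.26 CPM, and those of airway epithelium 0.788 to 141 CPM and 0.567 to 2.35 CPM. Plasma cell markers summed to 0.441 to 27.4 CPM in affected and 1.22 to 6.41 CPM in unaffected mice. The part of these differences in the results below was not tested.

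*Calr* (ENSMUSG00000003814) lies on the minus strand of chromosome 8, from 84841850 to 84846934 (GRCm38). Calreticulin is the soluble lectin of the cycle and also binds calcium in the ER. *Calr* was at 761, 1535, 1731, 1525 and 776 CPM in affected mice 1, 3, 4, 5 and 6. In unaffected mice it ranged from 170 to 372 CPM with a median of 243 CPM. The groups did not overlap, and affected mice 1 and 6 stood well below the other affected mice but above each unaffected mouse. The log2 fold change was 2.25 with a standard error of 0.25 (edgeR, adjusted p = 0.000217). Without both mice 1 and 6, it was 2.59.

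*Canx* (ENSMUSG00000020368) lies on the minus strand of chromosome 11, from 50293961 to 50325673. Calnexin has the same kind of lectin domain as calreticulin but is anchored in the ER membrane. *Canx* was at 447, 599, 697, 661 and 424 CPM in affected mice 1, 3, 4, 5 and 6. Unaffected mice ranged from 297 to 445 CPM, with a median of 375 CPM. Affected mouse 6 was therefore below the highest unaffected mouse, and mouse 1 just above it. *Canx* rose by a log2 fold change of 0.64 with a standard error of 0.14 (edgeR, adjusted p = 0.00952). In a fit with *Tg* left out of the library totals and no TMM scaling, the median of all genes was lower, at -0.13. There *Canx* had a log2 fold change of 0.51 and did not pass (edgeR, adjusted p = 0.0754).

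The promoters of both lectin genes hold the ER stress response element (ERSE), the motif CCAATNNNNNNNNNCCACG that is known as a binding site for NF-Y and the stress factor ATF6. It was searched on both strands from 250 bases before to 50 bases after the start of each gene, in RefSeq promoters of GRCm38.p6. The element was found in 2 of the 7 cycle genes, against 0.137% of 27025 genes and 0.119% of their 32851 promoters. It was not in the windows of *Uggt1*, *Uggt2*, *Ganab*, *Prkcsh* or *Mogs*. The 2 promoter stretches are shown because these genes differ in response while both hold the element. They run 5′ to 3′ along each gene from base -210 to base -61 relative to its start, with the element in capitals. In *Calr* it is on the opposite strand, so that its reverse complement is printed here.
Calr, minus strand, chr8:84846992-84847141: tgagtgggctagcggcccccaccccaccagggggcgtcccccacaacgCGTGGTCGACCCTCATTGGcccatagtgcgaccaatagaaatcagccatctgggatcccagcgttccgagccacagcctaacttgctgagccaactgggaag
Canx, minus strand, chr11:50325734-50325883: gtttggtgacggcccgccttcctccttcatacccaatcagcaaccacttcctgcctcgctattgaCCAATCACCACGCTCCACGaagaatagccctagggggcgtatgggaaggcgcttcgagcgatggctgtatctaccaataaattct
The element alone, written in its own direction with its fixed ends in capitals, lies at bases -162 to -144 in *Calr* and at bases -145 to -127 in *Canx*. The element of *Hspa5*, the gene of the ER chaperone BiP, at bases -65 to -47, is given for comparison.
Calr: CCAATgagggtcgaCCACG
Canx: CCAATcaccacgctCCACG
Hspa5: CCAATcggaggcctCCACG
A match is a run of letters and does not show that a factor binds there.

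The 2 lectin genes did not change in proportion. Their ratio within a mouse does not depend on how libraries are scaled, and was taken from the estimated counts. *Calr* had 1.70, 2.56, 2.48, 2.31 and 1.83 times the counts of *Canx* in affected mice 1, 3, 4, 5 and 6. In unaffected mice this ratio was between 0.572 and 0.983, with a median of 0.737. Every affected mouse thus had more *Calr* than *Canx* counts, and every unaffected mouse fewer. Counts are not scaled to transcript length. In FPKM, which are, the ratio was 3.16 to 4.98 in affected and 1.08 to 1.82 in unaffected mice. The log2 ratio was higher by 1.59 in affected mice (p = 0.00126 by an exact permutation of the 12 mice, two-sided, which is the smallest p possible here, and adjusted p = 0.00295 over 21 pairs).

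*Uggt1* (ENSMUSG00000037470) lies on the minus strand of chromosome 1, from 36140027 to 36244720. It was at 179, 281, 335, 291 and 221 CPM in affected mice 1, 3, 4, 5 and 6. Unaffected mice were close together, between 111 and 140 CPM with a median of 119 CPM. The groups did not overlap, and mice 1 and 6 were again the lowest of the affected mice. Its log2 fold change was 1.10 with a standard error of 0.13 (edgeR, adjusted p = 0.000274). Among the cycle genes, *Uggt1* and *Uggt2* are marked as confounded in the deposited data, and what the mark means for their counts was not examined.

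*Uggt2* (ENSMUSG00000042104) lies on the minus strand of chromosome 14, from 118985039 to 119099430. It was at 22.2, 26.6, 15.1, 24.6 and 22.8 CPM in affected mice 1, 3, 4, 5 and 6. Unaffected mice ranged from 14.4 to 18.3 CPM, with a median of 17.1 CPM. Affected mouse 4, which had the highest *Calr*, *Canx* and *Uggt1*, had the lowest *Uggt2* of the affected mice and lay within the unaffected range. The log2 fold change was 0.40 with a standard error of 0.12 (edgeR, adjusted p = 0.0396). Leaving out any mouse other than affected mouse 4 took the adjusted p to 0.05 or above, and without mouse 4 the log2 fold change was 0.53. An exon of *Gm16835* on the other strand covers 1.72% of its exon bases, and strand use in the counting is not given in the sources used here.

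*Uggt1* had 8.03, 10.6, 22.1, 11.8 and 9.70 times the counts of *Uggt2* in affected mice 1, 3, 4, 5 and 6. In unaffected mice the ratio was between 6.54 and 8.64, with a median of 6.97. Affected mouse 1 lay within the unaffected range, and mouse 4 was far above all others. The log2 ratio was higher by 0.68 in affected mice (exact permutation test, p = 0.00379, adjusted p = 0.00723 over 21 pairs). Without mouse 4 the difference was 0.45 (exact permutation test, adjusted p = 0.0174).

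The glucosidase genes rose by log2 fold changes of 0.48 to 0.63, less than *Calr* and *Uggt1*. *Ganab* (ENSMUSG00000071650, plus strand of chromosome 19, from 8898071 to 8916672) was at 128, 146, 146, 146 and 113 CPM in affected mice 1, 3, 4, 5 and 6. Unaffected mice ranged from 85.0 to 109 CPM, with a median of 101 CPM. The groups did not overlap, with affected mouse 6 closest to the unaffected mice. For *Ganab* the log2 fold change was 0.48 with a standard error of 0.09 (edgeR, adjusted p = 0.00500).

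*Prkcsh* (ENSMUSG00000003402, plus strand of chromosome 9, from 22002806 to 22014222) was at 52.2, 70.2, 64.1, 65.2 and 47.0 CPM in affected mice 1, 3, 4, 5 and 6. Unaffected mice ranged from 33.5 to 44.3 CPM, with a median of 37.4 CPM. The groups did not overlap, and the highest unaffected mouse was replicate 14, from Taconic. The log2 fold change was 0.63 with a standard error of 0.10 (edgeR, adjusted p = 0.00192).

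*Mogs* (ENSMUSG00000030036, plus strand of chromosome 6, from 83115496 to 83118898) was at 15.7, 22.0, 17.2, 22.1 and 16.1 CPM in affected mice 1, 3, 4, 5 and 6. Unaffected mice ranged from 11.3 to 13.8 CPM, with a median of 13.5 CPM. The groups did not overlap, and mice 3 and 5 were the highest. *Mogs* had a log2 fold change of 0.50 with a standard error of 0.10 (edgeR, adjusted p = 0.00732). With *Tg* left out of the library totals and no TMM scaling, *Ganab* (adjusted p = 0.101) and *Mogs* (adjusted p = 0.0904) did not pass in edgeR, while *Prkcsh* did (adjusted p = 0.039).

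**Figure D1:**
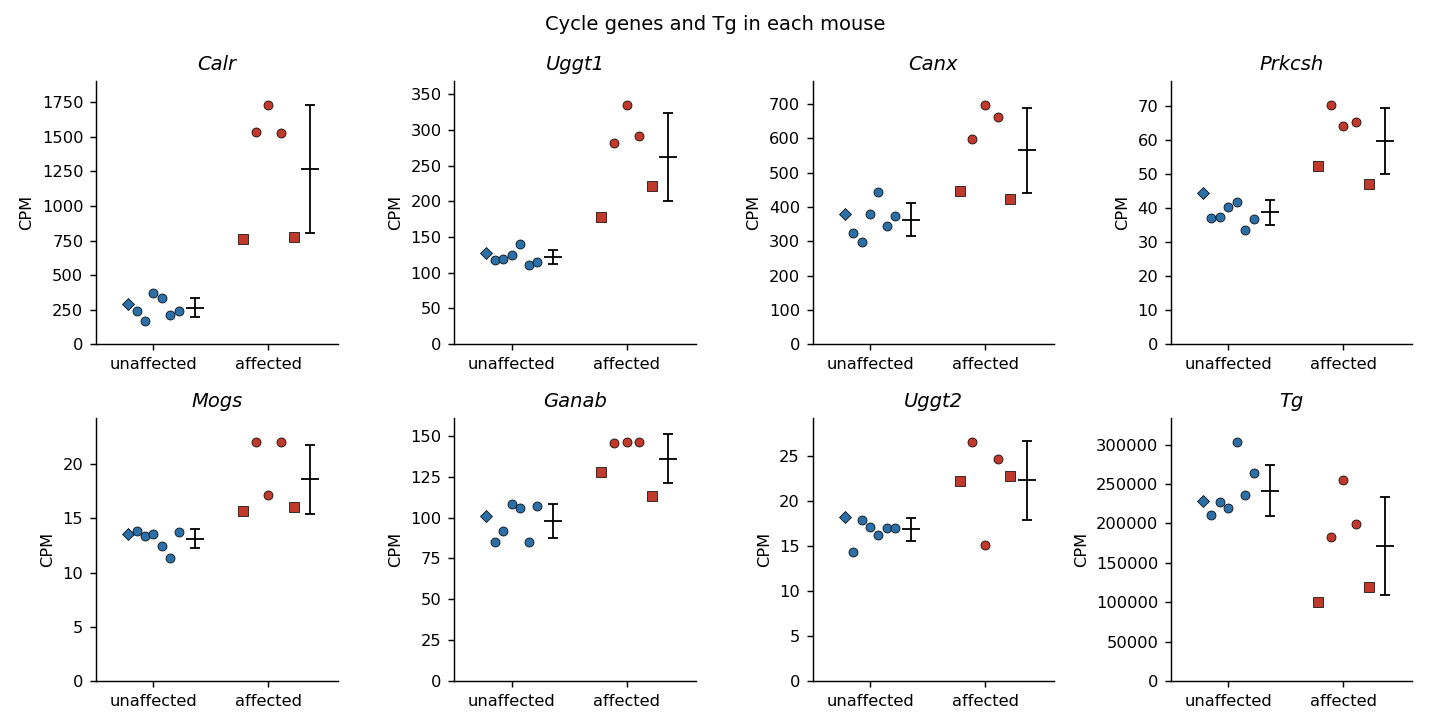
Level of each cycle gene and of *Tg* in CPM (vertical axis, from 0) in the 7 unaffected (blue) and 5 affected (red) mice, 1 point per mouse, with the mean and SD of each group beside the points. The diamond is unaffected replicate 14 and the squares are affected mice 1 and 6. *Calr* lies between 761 and 1731 CPM in affected mice, above the highest unaffected mouse at 372 CPM, and the squares are the lowest red points in every panel except *Uggt2*.

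The subunits of glucosidase II showed no ratio change that passed. *Ganab* had between 2.08 and 2.45 times the counts of *Prkcsh* in affected mice and between 2.27 and 2.92 times in unaffected mice, and these ranges overlapped. The log2 ratio differed by -0.14 (exact permutation test, p = 0.0682, adjusted p = 0.119 over 21 pairs). *Ganab* had 6.61 to 8.53 times the counts of *Mogs* in affected mice and 6.13 to 8.49 times in unaffected mice. That log2 ratio differed by -0.01 with SDs of 0.17 and 0.15 within the groups (exact permutation test, p = 0.88, adjusted p = 0.924). These tests do not show that the ratios are equal.

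Over all 21 pairs of the 7 genes, 11 ratios differed between the groups at an adjusted p under 0.05 (exact permutation test). These were the 6 pairs with *Calr* and the other 5 pairs with *Uggt1*. *Calr* gained 1.15 to 1.83 log2 units on each other gene, the least on *Uggt1*. *Uggt1* gained 0.45 to 0.68 log2 units on each of the 5 remaining genes. Among those 5 genes, the 10 ratios differed by 0.01 to 0.24 log2 units, and 0 of them passed, also without adjustment (exact permutation test, adjusted p from 0.119 to 0.946). The 11 ratios were also 11 with FPKM in place of counts, without replicate 14 and without each other mouse in turn.

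**Figure D2:**
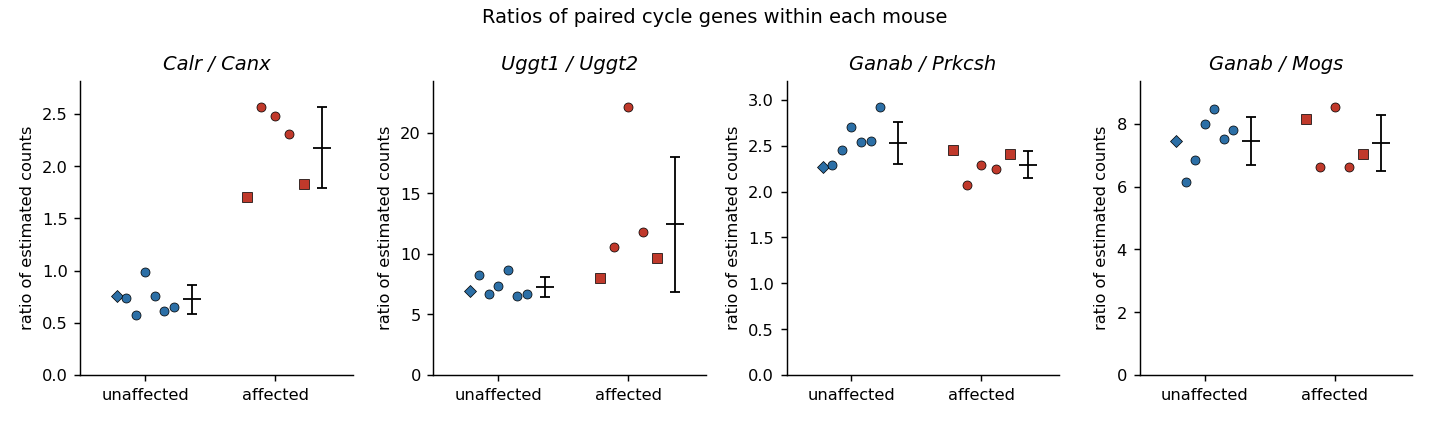
Ratio of estimated counts (vertical axis, from 0) for the lectin pair, the glucosyltransferase pair, the glucosidase II subunits and the catalytic glucosidase genes, 1 point per mouse (blue unaffected, red affected), with mean and SD. The *Calr* to *Canx* ratio is at 1.70 or above in each affected mouse and at 0.983 or below in each unaffected mouse, whereas the ranges of the other 3 ratios overlap.

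Levels of different genes were compared in FPKM, which are fragments scaled to transcript length and to the library total. In unaffected mice the order was *Calr* (135 ± 36.4 FPKM, SD, n = 7), *Canx* (99.0 ± 12.9), *Ganab* (30.3 ± 3.20), *Uggt1* (24.1 ± 2.07), *Prkcsh* (19.2 ± 2.08), *Mogs* (5.32 ± 0.621) and *Uggt2* (4.73 ± 0.673). *Calr* and *Canx* overlapped across unaffected mice, although *Calr* was the higher of the pair in 7 of 7. *Ganab* and *Uggt1*, *Uggt1* and *Prkcsh*, and *Mogs* and *Uggt2* also overlapped. In affected mice *Calr* was at 659 ± 255 FPKM (SD, n = 5) and no longer overlapped *Canx* at 155 ± 35.2 FPKM. *Uggt1*, at 50.1 ± 11.1 FPKM, came before *Ganab*, at 41.3 ± 6.24 FPKM, in 4 of 5 affected mice, the reverse of the order in 7 of 7 unaffected mice. *Prkcsh* followed at 29.5 ± 5.57 FPKM, and *Mogs* (7.23 ± 1.27 FPKM) and *Uggt2* (6.61 ± 1.43 FPKM) were again last, with *Mogs* above *Uggt2* in 3 of 5 mice.

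An implied transcript length was obtained by dividing a gene's counts by its FPKM and by the library total. It moves when a gene is read from longer or shorter transcripts. The implied length of *Calr* was 1927 ± 83.5 bp (SD, n = 5) in affected and 1978 ± 33.7 bp (SD, n = 7) in unaffected mice. That of *Uggt2* was 3366 ± 81.1 bp and 3591 ± 284 bp. Between the groups, the change ran from -6.28% in *Uggt2* to 3.04% in *Mogs*. It passed for 0 of the 7 genes, with 0 also at an unadjusted p under 0.05 (exact permutation tests, adjusted p from 0.276 to 0.616). The higher counts were thus accompanied by no detectable shift in implied length at this number of mice.

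Mice 1 and 6 were the lowest of the affected mice for 6 of the 7 genes, all but *Uggt2*, although the order within this pair and among the other 3 mice differed between genes. They were also the lowest for *Tg* and the other follicle cell markers. After these values had been seen, *Calr* was therefore expressed per 1000 counts of *Tg*. It was at 6.52 to 8.40 in affected mice and at 0.750 to 1.70 in unaffected mice. Mean *Tg* was 171208 CPM in affected and 241191 CPM in unaffected mice, so the lower *Tg* adds to the group difference in this ratio. Within affected mice, the coefficient of variation was 36.4% for *Calr* in CPM and 10.2% for *Calr* per *Tg*, and in unaffected mice it was 26.8% and 28.1%. In affected mice it was also lower per *Tg* than in CPM for *Uggt1* (14.2% against 23.5%) and *Canx* (18.1% against 21.9%). It was higher per *Tg* for the other 4 genes, at 30.5% against 11.1% for *Ganab*, 26.3% against 16.2% for *Prkcsh*, 28.0% against 17.2% for *Mogs* and 42.2% against 19.5% for *Uggt2*. Scaling the libraries to 8 follicle cell markers other than *Tg*, which raises the median of all genes to 0.25, gave *Calr* a log2 fold change of 2.36, *Uggt1* 1.24, *Canx* 0.81 and *Prkcsh* 0.81, each with an adjusted p under 0.05. *Ganab* (0.70), *Mogs* (0.69) and *Uggt2* (0.67) did not pass on that scale, with adjusted p of 0.0717, 0.136 and 0.229 (edgeR).

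**Figure D3:**
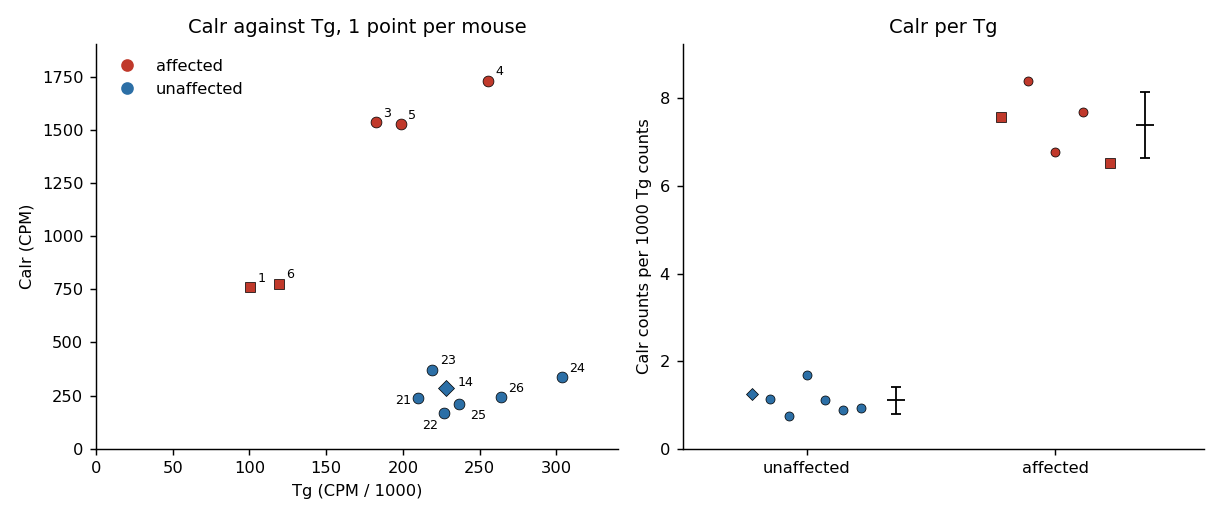
Left, *Calr* (CPM) against *Tg* (CPM divided by 1000), 1 point per mouse labelled by replicate. Right, *Calr* counts per 1000 *Tg* counts with mean and SD. Blue points are unaffected and red points affected mice, the diamond is replicate 14 and the squares are affected mice 1 and 6. Affected mice lie between 6.52 and 8.40 and unaffected mice between 0.750 and 1.70 *Calr* counts per 1000 *Tg* counts.

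Unaffected replicate 14 shares its supplier with the affected mice. Its position was set between the mean of the 6 Charles River mice (0) and the mean of the affected mice (1). It lay at 0.0261 for *Calr*, 0.0439 for *Uggt1*, 0.0914 for *Canx*, 0.0873 for *Ganab* and 0.0814 for *Mogs*. It lay at 0.295 for *Uggt2* and at 0.298 for *Prkcsh*, and was the highest unaffected mouse for both. Being 1 mouse, it allows no test of colony.

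Genes around the cycle were read from 6 lists of its neighbours. In edgeR, 0 of the listed genes were lower, also at an unadjusted p under 0.05. For comparison, 7.63% of all genes tested were higher and 6.1% lower at an adjusted p under 0.05. In 3.78% of them every affected mouse was above every unaffected mouse. The share of all genes at an unadjusted p under 0.05 was not taken. Of the partners and relatives of the lectins, 4 of 6 tested were higher (edgeR, adjusted p under 0.05). *Pdia3*, the disulfide isomerase ERp57 that works on proteins held by the lectins, was at 899 ± 312 CPM (SD, n = 5) against 249 ± 54.7 CPM (SD, n = 7), a log2 fold change of 1.85. *Ppib*, a prolyl isomerase of the ER, had a log2 fold change of 0.76, *Erp29*, a relative of the disulfide isomerases, 0.59 and *Mlec*, a lectin for glycans with more than a single glucose, 0.55. Exons of *Snx22* and of *Naa25* on the other strand cover 25.0% of the exon bases of *Ppib* and 24.4% of those of *Erp29*.

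The oligosaccharyltransferase, which starts the cycle by glycan transfer, had 11 of 12 subunit genes higher, with a median log2 fold change of 0.82. The largest were *Krtcap2* (1.16), *Rpn2* (1.00), *Ddost* (0.97) and *Magt1* (0.97). Exons on the other strand cover 15.7% of the exon bases of *Krtcap2* (from *Trim46*), 5.46% of those of *Rpn2* (from *Mroh8*) and 53.2% of those of *Ost4* (from *Agbl5*), another of the 11. The exception was *Tusc3*, named after its value was seen, at -0.10 (edgeR, adjusted p = 0.554), which encodes the alternative to *Magt1* in the complex. *Magt1* was at 140 ± 33.8 CPM (SD, n = 5) in affected and 71.5 ± 12.5 CPM (SD, n = 7) in unaffected mice. *Tusc3* was at 28.5 ± 5.08 CPM (SD, n = 5) and 30.6 ± 2.18 CPM (SD, n = 7). CPM are not scaled to transcript length, so the level of *Magt1* was not compared with that of *Tusc3*.

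Of the genes of cargo lectins that carry folded glycoproteins out of the ER and of a lectin partner, 3 of 4 tested were higher. They were the lectin genes *Lman1* (log2 fold change 0.92) and *Lman2* (0.66), and *Mcfd2* (1.09), the partner of *Lman1*. Each was without overlap between the groups. Of 11 genes of mannose trimming and of the glycan-dependent degradation of misfolded glycoproteins, 5 were higher. These included *Edem1* (1.02), *Os9* (0.68), *Edem2* (0.60) and *Fbxo6* (0.36). Of the 5, 1 was without overlap, and 0 to 8 of the 11 genes passed under other settings, with 8 when affected mice 1 and 6 were left out. Past the ER, 0 of 8 genes of endomannosidase and Golgi trimming passed in edgeR, 1 had an unadjusted p under 0.05 and 1 passed in DESeq2. Their median log2 fold change was 0.03. Among all genes tested, 13.7% passed in either direction, so 0 of 8 is near that share and does not set these genes apart.

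Other ER chaperones, which act on proteins with and without glycans, were higher in 13 of 13 genes and without overlap in each. Their median log2 fold change was 2.55, and *Sdf2l1* (3.76), *Creld2* (3.41), *Pdia4* (3.00) and *Hspa5* (2.88) led. *Calr*, at 2.25, lay below that median, and the 6 other cycle genes lay at or below 1.10. The ERSE was found in 5 of 10 promoters of this list (*Hspa5*, *Hsp90b1*, *Dnajc3*, *Pdia6* and *Creld2*) and in 0 of 35 promoters of the other 5 lists. The related motif ATTGGNCCACG (ERSE-II), in 0.0365% of all promoters and 0.0444% of genes, was in *Dnajb11* and *Krtcap2* and in 0 of the 7 cycle genes.

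**Figure D4:**
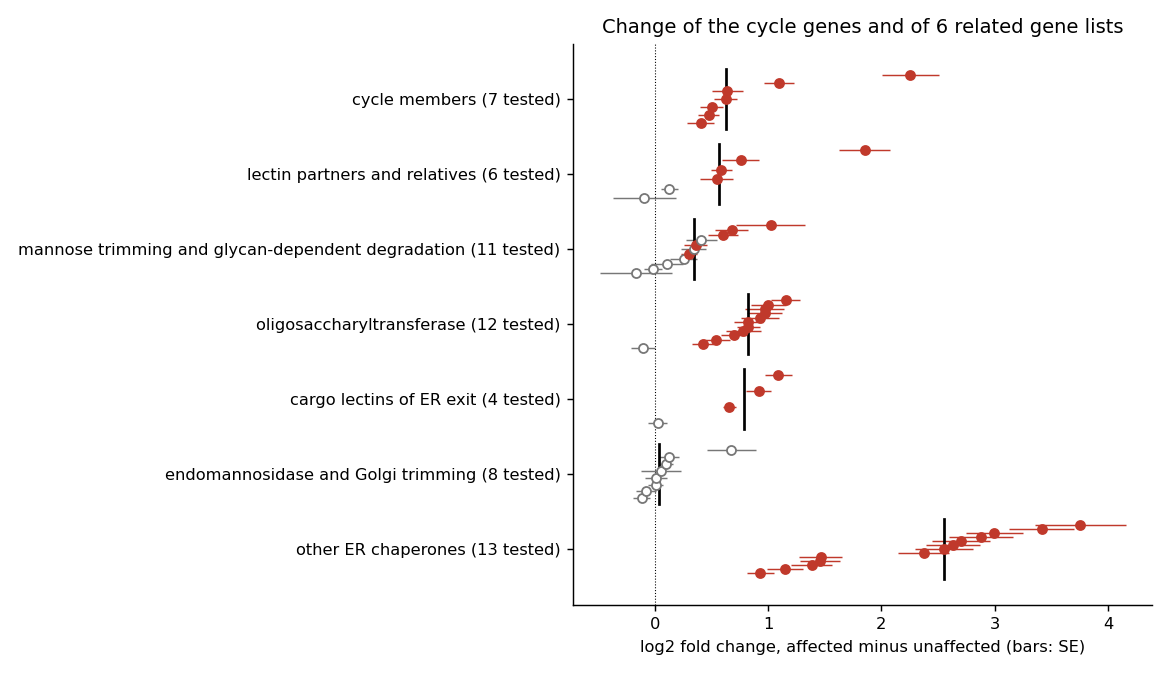
Log2 fold change (horizontal axis, affected minus unaffected, 0 dotted) of the 7 cycle genes and of the tested genes of 6 related lists, with bars of 1 standard error. Filled red points are higher at an adjusted p under 0.05 and open points did not pass, and black lines are list medians. The medians are 0.63 for the cycle, 0.82 for the oligosaccharyltransferase, 0.03 for Golgi trimming and 2.55 for the other ER chaperones.

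Profiles over the 12 mice were compared by the root mean square difference of log2 CPM, each centred on its mean in unaffected mice, among 15527 genes. Nearest to *Calr* were *Pdia6* (0.16 log2 units), *Hsp90b1* (0.26), *Pdia3* (0.27), *Hyou1* (0.28) and *Fkbp11* (0.29), of which 1 lay within 0.25. *Canx* was nearest to *Ssr1* (0.07), *Tram1* (0.08) and *Plpp5* (0.09), with 353 genes within 0.25. *Ssr1* and *Tram1* encode proteins at the ER channel through which new proteins enter. *Uggt1* was nearest to *Gm47164* (0.11), *Spcs2* (0.11) and *Krtcap2* (0.11), with 68 genes within 0.25. For *Prkcsh* the nearest were *Ftl1* (0.08), *Erp29* (0.09) and *Derl2* (0.10), among 530 genes within 0.25. *Ganab* (nearest *Cope*, *Arf4* and *Slc12a4*), *Mogs* (*Nubp1*, *Lmf1* and *Abca7*) and *Uggt2* (*Foxk2*, *Wnt5b* and *Slc11a2*) had 1363, 1137 and 994 genes within 0.25. Since the profiles keep the change between groups and most genes changed little, the number within 0.25 tends to fall as the fold change grows. It is therefore not a separate trait of a gene. The lists of neighbours share all mice and libraries with the cycle genes.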

How the data were processed

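Total RNA from thyroids was depleted of ribosomal RNA and sequenced on an Illumina NextSeq instrument. The authors aligned reads with the OmicSoft aligner to mouse genome B39 with Ensembl release 96, and deposited estimated counts per gene without normalization and FPKM values. Start and end of all 7 genes are the same in GENCODE release M21 (GRCm38). Estimated counts were rounded, filtered with edgeR's filterByExpr (minimum count 10), scaled by TMM and tested with edgeR 4.0.16 (robust quasi-likelihood, R 4.3.3), with Benjamini-Hochberg adjustment over 19661 genes. Nothing says how the mice relate beyond 1 library each. Ratios and implied lengths were tested over all 792 splits of the mice. DESeq2 1.42.0 and limma 3.58.1 gave other fits. Lists were counted, with no set test. By rule, the genes named are the 7 cycle genes, *Tg*, at most 4 per list with the largest change past the threshold, and nearest profiles with an average log2 CPM of at least 1. *Tusc3*, cell type markers that passed, genes with overlapping exons and genes with a promoter motif were named after their values were seen. The genes, lists and tests were chosen with earlier results of these data known.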

Additional observations from a re-analysis of the deposited data

Results flagged for a closer look

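Of 36 sets of values (levels, implied lengths and paired ratios of the cycle genes in each group), 1 held an outlying mouse. Chance gives about 1 in 20, so 1 of 36 is not more than chance gives. The implied length of *Calr* was 1781 bp in affected mouse 4 and between 1937 and 1983 bp in the other affected mice, so that the gap below the other mice made up 0.774 of the range of the group. Affected mouse 4 also had the highest *Calr* level (1731 CPM). In that mouse the markers of parathyroid summed to 29.5 CPM, the lowest value among affected mice.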

How the results depend on the processing

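In all 24 other fits the 7 cycle genes kept a positive log2 fold change. All 24 called *Calr*, *Uggt1* and *Prkcsh*, 23 called *Canx*, 21 *Ganab*, 21 *Mogs* and 3 *Uggt2*. The fit with the 6 Charles River mice as controls is the one without replicate 14 and was counted once. Instead of 7, the number called was 3 with library totals without *Tg*, 4 with limma on log2(FPKM + 1) without a filter and 4 when scaled to follicle cell markers. It was 6 to 7 with each mouse left out. The last scaling and the fit without affected mice 1 and 6 were chosen after seeing the data. The fit with library totals without *Tg* also used no TMM factors. It called 604 genes higher and 1709 lower, against 1500 and 1199 in the main comparison. Scaling to follicle cell markers called 471 and 107, and limma without a filter 719 and 620. The number of mannose trimming genes called, 5 in the main comparison, was 3 without TMM factors, 0 without *Tg* in the totals, 3 without a filter, 3 and 3 with limma at pseudocounts of 1 and 0.1, 2 with limma without a filter, 2 scaled to follicle cell markers and 8 without affected mice 1 and 6. It was 3 to 6 with each mouse left out, with 3 when affected mouse 3 or 5 or unaffected mouse 24, 25 or 26 was left out. Of the lectin partners, 2 passed without *Tg* in the totals. Of the Golgi trimming genes, 1 passed with DESeq2, 1 with at least 10 counts in every mouse, and 0 to 1 with each mouse left out, with 1 without affected mouse 4 or unaffected mouse 21. The difference in the *Ganab* to *Mogs* ratio, -0.01, was 0.0063 with FPKM, and -0.068 to 0.024 with each mouse left out. The difference in the implied length of *Prkcsh*, -2.59 bp, was -4.78 to 0.215 bp with each mouse left out, positive without affected mouse 6. The causes were not tested. No paired analysis was made, as the labels record no litter or other matching between affected and unaffected mice. Whole-gene counts show no single exons.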
